A study of Homo sapiens with 6 samples.

Results

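The integrin, laminin and collagen genes of the human liver cancer cell line Huh7 were followed across 6 RNA sequencing libraries. They were chosen by symbol and gene type alone. All protein-coding genes named as an integrin alpha or beta subunit (ITGA and ITGB symbols), a laminin chain (LAMA, LAMB and LAMC) or a collagen chain (COL) were taken, which gave 83 of the 58735 gene rows and of the 19951 protein-coding genes. They were 18 integrin alpha subunits, 8 integrin beta subunits, 12 laminin chains and 44 collagen chains, of which 6 form the collagen IV of basement membranes, 11 are fibrillar collagens and 27 belong to other collagen types. The remaining gene, ITGBL1, matched by symbol but encodes an integrin beta-like protein that is no transmembrane subunit. The study compared 3 libraries of cells with a control hairpin RNA (shcontrol) with 3 libraries of cells with a hairpin against TRIM15 (shTRIM15, here also the knockdown). Both groups share the Huh7 line and its culture in RPMI-1640 with serum. The number and sequence of the hairpins are not given in the sources used here, nor is it said that replicates came from separate cultures, so p-values measure the spread between these libraries, which may be technical.

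Integrins are heterodimers of an alpha and a beta subunit that span the plasma membrane, bind matrix proteins outside the cell and couple through adaptor proteins to actin inside it. The alpha subunit largely sets the ligand, so that ITGA1 and ITGA2 with ITGB1 bind collagens, ITGA6 with ITGB1 or ITGB4 binds laminins, and ITGA5 or ITGAV with their partners bind proteins that carry the RGD motif, such as fibronectin and vitronectin. Laminins are trimers of an alpha, a beta and a gamma chain, and collagens are triple helices of equal or different alpha chains. In liver, hepatocytes face a sparse matrix and stellate cells are the main source of fibrillar collagen. TRIM15 is a ubiquitin ligase of the tripartite motif family that has been found at focal adhesions, the sites where integrins meet the actin cytoskeleton.

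Whole reads were recovered from the deposited values, and depth was 17332508 to 19556855 reads per library. Pearson's r of log2(FPKM + 1) across tested genes was 0.991 to 0.992 within a group and 0.988 to 0.989 between groups, with genes as the points. TRIM15 had 5.17, 5.09 and 4.89 FPKM in the control libraries and 3.23, 2.11 and 2.51 FPKM in the knockdown libraries, a mean of 51.8% of control. Its groups did not overlap (exact permutation test, two-sided p = 0.1, the smallest that 3 against 3 libraries allow), and its log2 fold change was -0.75 with an adjusted p of 0.00416. All 13 hepatocyte markers were measured above the filter, led by ALB at 914 FPKM. Below 0.5 FPKM in all 6 libraries were 10 of 10 endothelial markers, 8 of 10 immune markers and 8 of 11 stellate cell and fibroblast markers. The fibroblast markers outside that count were LUM, PDGFRA and RGS5, the last at 0.476 to 0.590 FPKM.

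Huh7 cells made a small share of these genes at high levels. A gene was tested when 3 or more libraries reached 0.5 FPKM, and 39 of the 83 genes passed this filter. FPKM is a level scaled to both gene length and library size. The deposited length covers all annotated exons of a gene, so the order of genes set side by side can depend on it. The other 44 genes were lower, the highest being ITGA9 with a mean of 0.454 FPKM, and 7 of them were listed at 0 in all libraries (COL5A1, COL15A1, ITGA8, ITGAX, ITGB7, LAMA1 and LAMC3). For these 7, a floor of 3 reads per library corresponds to 0.00957 FPKM in LAMA1, which has the longest gene model, and to 0.0381 FPKM in ITGB7, which has the shortest. Of the 39, ITGA7 passed through its 3 control libraries alone and had to be higher there. A mean of at least 10 FPKM was reached by 16 genes. The highest was the fibrillar collagen gene COL5A2 with a mean of 184 FPKM, which ranked 168 among the 19951 protein-coding genes. By the deposited length it was followed by COL14A1 with 125 FPKM, ITGB1 with 69.8 FPKM and LAMC1 with 61.4 FPKM.

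**Figure D1:**
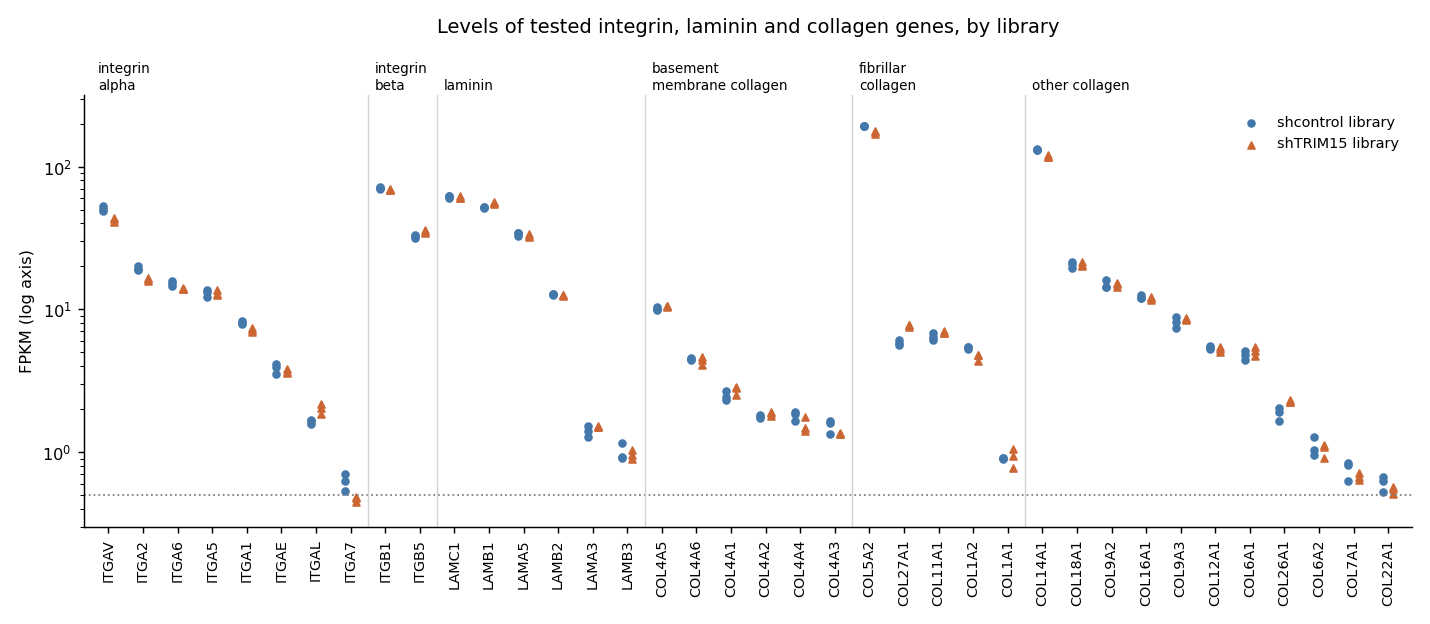
FPKM (log axis) of tested integrin, laminin and collagen genes in each of the 3 shcontrol libraries (circles) and 3 shTRIM15 libraries (triangles), ordered by mean within each class, with a dotted line at 0.5 FPKM. COL5A2 and COL14A1 lie above 100 FPKM in every library, and ITGA7 lies below the line in the 3 shTRIM15 libraries.

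The knockdown moved a few of these genes by small amounts in both directions. Limma on log2(FPKM + 1), with p-values adjusted by the Benjamini-Hochberg method over all 14847 tested genes, called 9 of the 39 at an adjusted p under 0.05, or 23.1%, beside 19.0% of all tested genes and 22.8% of tested protein-coding genes. The genes COL27A1, ITGB5 and LAMB1 rose (3 of 39, beside 8.93% of all tested genes). ITGAV, ITGA2, ITGA1, COL1A2, COL14A1 and COL5A2 fell (6 of 39, beside 10.1%). These shares are near those of all genes. The median log2 fold change of the 39 genes was -0.03, beside 0.0014 for all tested genes. In 16 of the 39 genes the control and knockdown libraries did not overlap (7 higher and 9 lower). This stands beside 37.8% of all tested genes and 5131 of the 11652 tested protein-coding genes. ITGA7 is among the 9 lower genes, and for it the filter fixed this outcome, as it passed through the control libraries alone. Fold changes are differences of log2(FPKM + 1), a scale on which the change of a gene near 1 FPKM comes out too small. The 4 calls of ITGB5, ITGA1, COL1A2 and LAMB1 depended on settings or on single libraries, with values at each gene.

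**Figure D2:**
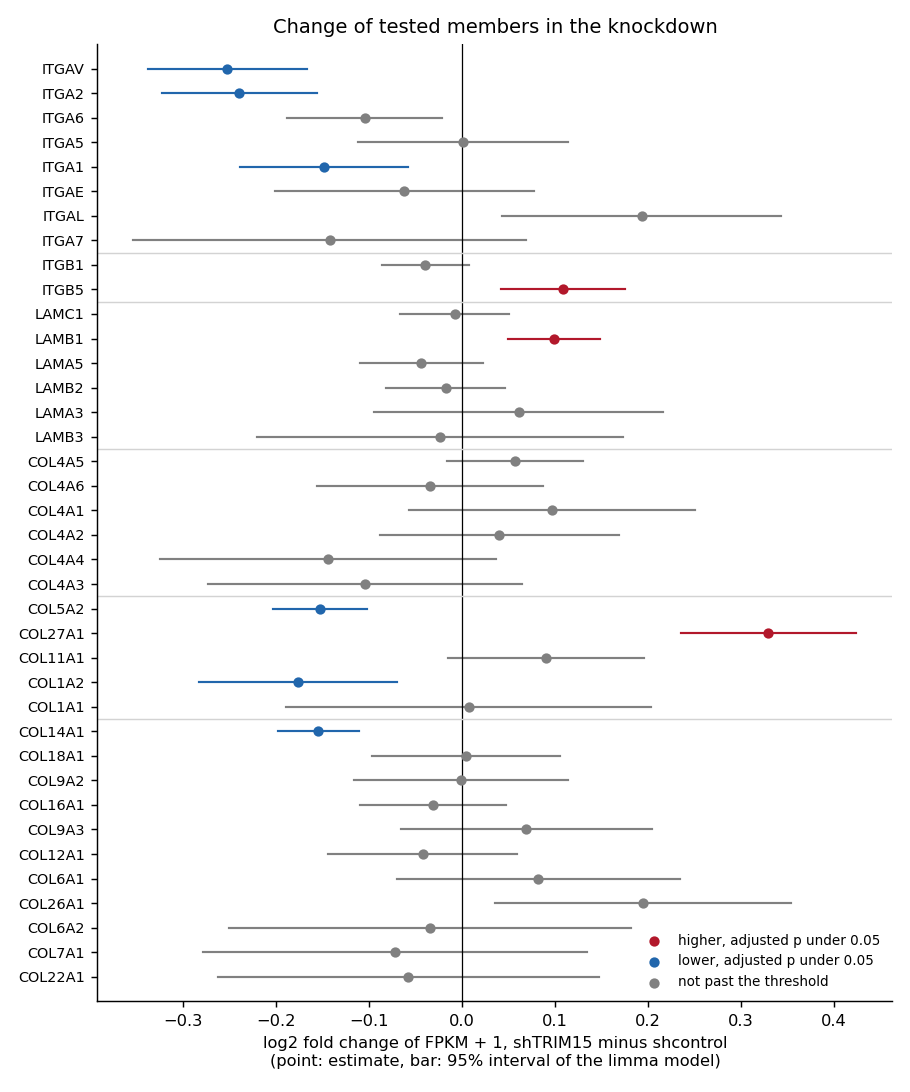
Log2 fold change of FPKM + 1 (shTRIM15 minus shcontrol) of tested integrin, laminin and collagen genes, with the estimate as a point and its 95% interval from the limma model as a bar, grouped by class in the order integrin alpha, integrin beta, laminin, basement membrane collagen, fibrillar collagen and other collagen. Among integrin alpha subunits 3 genes are past the threshold and lower, and COL27A1 has the largest rise at 0.33.

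**Figure D3:**
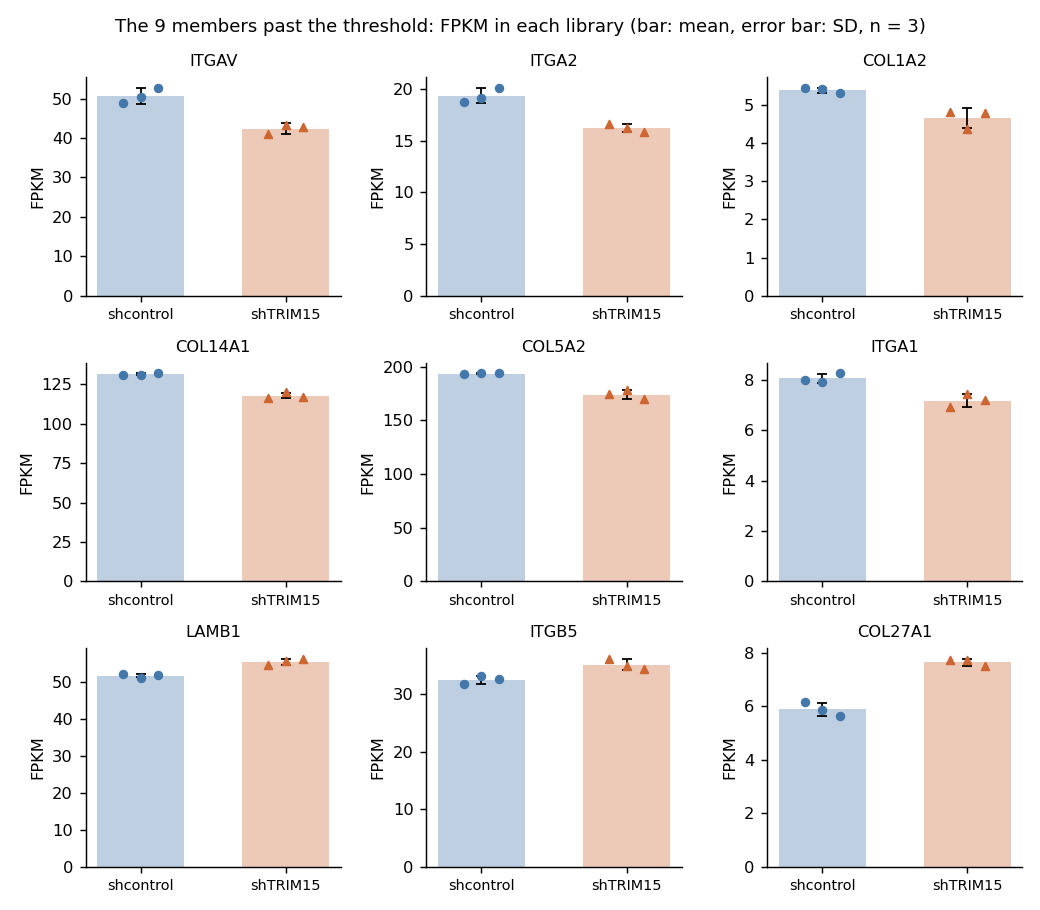
FPKM of the 9 genes past the threshold in each library (points), with the group mean as a bar from 0 and the SD of 3 libraries as the error bar. In each panel the 3 shTRIM15 libraries lie wholly on 1 side of the 3 shcontrol libraries.

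Among the beta subunits, which partner several alpha subunits, only ITGB1 and ITGB5 passed the filter, and together they held 99.0% ± 0.058 of the summed beta FPKM in control and 99.1% ± 0.16 in the knockdown (SD, n = 3). ITGB1 is the shared partner of the collagen, laminin and fibronectin receptors. It had 69.8, 70.9 and 71.8 FPKM in control and 69.5, 68.4 and 68.7 FPKM in the knockdown. The groups did not overlap, yet the log2 fold change of -0.04 (95% interval -0.09 to 0.0071) did not pass the threshold (adjusted p = 0.218). ITGB5 pairs with ITGAV alone and forms a vitronectin receptor. It had 31.8, 33.1 and 32.6 FPKM in control and 36.1, 34.8 and 34.4 FPKM in the knockdown, and all 3 knockdown libraries were above all 3 control libraries. ITGB5 rose by 0.11 (SE 0.028, adjusted p = 0.0381). That call was lost when any 1 library was left out (adjusted p from 0.0624 to 0.110), without the filter (0.0761) and without the mean-variance trend (0.0992). ITGB4, ITGB6 and ITGB8 were at means of 0.365, 0.329 and 0.279 FPKM in control, and ITGB2, the beta subunit of leukocyte integrins, was at 0.0246 FPKM.

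Of the 18 alpha subunits 8 were tested, and by limma 3 of them fell (37.5%, beside 10.1% of all tested genes) and 0 rose (beside 8.93%). Of the 11652 tested protein-coding genes, 1401 fell and 1258 rose. At an unadjusted p under 0.05 there were 5 (ITGAL higher, the others lower), and voom called the same 5. The sum over all alpha subunits was 111, 112 and 117 FPKM in control and 98.4, 101 and 100.5 FPKM in the knockdown, and the groups did not overlap. ITGAV, the alpha subunit of vitronectin and other RGD receptors, was the most abundant and held 44.7% ± 0.54 of the alpha sum in control and 42.4% ± 0.71 in the knockdown. ITGAV (chromosome 2, 186590065 to 186680901, plus strand, GRCh38) had 48.8, 50.5 and 52.8 FPKM in control and 40.9, 43.4 and 42.8 FPKM in the knockdown. Every knockdown library was below every control library. ITGAV fell by 0.25 on the log2 scale (SE 0.036, adjusted p = 0.00436) to 83.6% of control, and its call was kept in all alternatives tried. ITGA5, which with ITGB1 forms the classical fibronectin receptor, overlapped between groups, with 13.6, 12.2 and 13.2 FPKM in control and 12.8, 12.6 and 13.6 FPKM in the knockdown. Its log2 fold change of 0.00068 had a 95% interval of -0.11 to 0.11.

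ITGAV and its partner ITGB5 moved in opposite directions. The ratio of ITGAV to ITGB5 FPKM was 1.54, 1.53 and 1.62 in control and 1.13, 1.25 and 1.24 in the knockdown. All knockdown ratios were lower, and this ratio is given as a description without a test. The order of both genes depends on the length used. Per base of the transcript with the longest coding sequence, a measure added after the table was seen, the ratio was 1.24 ± 0.041 in control and 0.957 ± 0.052 in the knockdown (SD, n = 3).

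The collagen receptor subunits ITGA1 and ITGA2 both fell, and ITGA10 and ITGA11, which bind collagens as well, were below the filter at means of 0.0470 and 0.0035 FPKM in control. ITGA2 had 18.7, 19.1 and 20.2 FPKM in control and 16.6, 16.3 and 15.8 FPKM in the knockdown. The groups lay apart by more than their spread, and ITGA2 fell by 0.24 (SE 0.035, adjusted p = 0.00484) to 83.9% of control in a call kept in all alternatives tried. ITGA1 had 8.003, 7.91 and 8.28 FPKM in control and 6.91, 7.43 and 7.19 FPKM in the knockdown, again without overlap. ITGA1 fell by 0.15 (SE 0.038, adjusted p = 0.0374) to 89.0% of control. The ITGA1 call was lost when any 1 library was left out (adjusted p from 0.0521 to 0.110), without the filter (0.0709) and without the mean-variance trend (0.0546). Of the gene length of ITGA1, 2.56% lies in exons of PELO, a gene of the same strand at 15.3 FPKM, whose reads the counting may have shared.

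Both collagen receptor genes lie side by side on chromosome 5, on the plus strand, ITGA1 at 52787896 to 52959210 and ITGA2 at 52989326 to 53094779, 30115 bases apart. Their promoter windows, from 250 bases before to 50 bases after the start site, are shown because these neighbours fell together and their windows differ in sequence. The windows are from RefSeq on GRCh38.p14, chr5:52787666-52787965 for ITGA1 and chr5:52989102-52989401 for ITGA2, both on the plus strand. Capitals mark the GC box letters GGGCGG, which are part of the binding sequence of Sp1-type factors, searched on both strands. The ITGA1 window holds 0 GC boxes at 61.7% G and C, and the ITGA2 window holds 4 at 72.7% G and C.
ITGA1: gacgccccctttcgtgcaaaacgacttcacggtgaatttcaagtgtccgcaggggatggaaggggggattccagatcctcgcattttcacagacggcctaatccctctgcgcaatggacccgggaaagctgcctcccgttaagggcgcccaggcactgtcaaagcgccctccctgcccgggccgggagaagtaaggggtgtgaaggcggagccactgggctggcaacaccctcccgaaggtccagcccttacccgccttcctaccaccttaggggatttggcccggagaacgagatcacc
ITGA2: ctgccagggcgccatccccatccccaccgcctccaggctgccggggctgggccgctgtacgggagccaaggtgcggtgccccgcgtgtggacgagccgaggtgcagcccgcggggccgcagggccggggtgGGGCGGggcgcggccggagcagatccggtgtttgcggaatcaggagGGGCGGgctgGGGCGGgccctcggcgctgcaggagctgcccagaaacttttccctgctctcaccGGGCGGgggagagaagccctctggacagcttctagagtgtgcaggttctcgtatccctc

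Neither window holds the CCAAT box, the TATA box letters TATAAA or the forkhead core letters TGTTTAC on either strand. A match or its absence describes these letters in this window and says nothing about which factor acts there.

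The laminin receptor subunit ITGA6 was the only one of its role above 10 FPKM. ITGA6 had 14.5, 15.2 and 15.8 FPKM in control and 13.97, 13.97 and 14.1 FPKM in the knockdown. The knockdown libraries were all below the control libraries, at a log2 fold change of -0.10 that did not pass the threshold (adjusted p = 0.0854). It passed with voom on the recovered reads (0.0193) and without control library 1 (0.0407). ITGA7 stood at 0.530, 0.631 and 0.700 FPKM in control and 0.482, 0.445 and 0.474 FPKM in the knockdown (adjusted p = 0.330). ITGA3, another laminin receptor subunit, was at 0.310 FPKM in control.

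Of the integrins of leukocytes, ITGAL and ITGAE were measured without their partners. ITGAL had 1.58, 1.66 and 1.68 FPKM in control and 2.04, 2.17 and 1.85 FPKM in the knockdown. The knockdown libraries were all higher, at a log2 fold change of 0.19 (adjusted p = 0.0790), and it was called by voom (0.0247) and, barely, without the mean-variance trend (0.04999). Its partner ITGB2 had 2, 4 and 3 reads in the control libraries and 2, 3 and 4 reads in the knockdown libraries. ITGAE had 3.96, 4.16 and 3.53 FPKM in control and 3.80, 3.58 and 3.65 FPKM in the knockdown, with overlap, while its partner ITGB7 was listed at 0 in all 6 libraries. Of the gene length of ITGAE, 6.41% overlaps HASPIN on the opposite strand at 7.73 FPKM. The sources used here do not say whether counting used strand.

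Laminin chains summed to 172 ± 0.85 FPKM in control and 174 ± 2.1 FPKM in the knockdown (SD, n = 3). LAMA5 held 94.8% of the laminin alpha FPKM and LAMB1 78.9% of the beta FPKM in control. LAMC1, the gamma chain of most laminins, had 60.0, 62.7 and 62.0 FPKM in control and 60.4, 62.4 and 60.8 FPKM in the knockdown, with full overlap and a log2 fold change of -0.0080 (95% interval -0.07 to 0.05). LAMA5, the alpha chain of mature epithelial basement membranes, had 34.3, 34.2 and 32.8 FPKM in control and 32.1, 32.6 and 33.5 FPKM in the knockdown, also with overlap (adjusted p = 0.338). Of its gene length 1.71% overlaps ADRM1, a gene of the opposite strand at 113 FPKM.

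LAMB1 was the laminin chain that rose. LAMB1 (chromosome 7, 107923799 to 108003255, minus strand) had 52.2, 51.2 and 51.9 FPKM in control and 54.6, 55.7 and 56.3 FPKM in the knockdown. All knockdown libraries were higher, and LAMB1 rose by 0.10 (SE 0.021, adjusted p = 0.0190) to 107% of control. The call was lost without control library 2 (0.0678), without knockdown library 2 (0.0653), without knockdown library 3 (0.0711) and without the mean-variance trend (0.0860). The ratio of LAMB1 to LAMC1 was 0.842 ± 0.027 in control and 0.907 ± 0.018 in the knockdown. Per base of the longest coding transcript it was 1.12 ± 0.036 and 1.202 ± 0.023, so which of both chains is more abundant depends on the length used. LAMB2, an alternative beta chain, was at 12.7 ± 0.14 FPKM in control and 12.6 ± 0.15 FPKM in the knockdown (SD, n = 3). LAMA3 and LAMB3 were at 1.402 and 0.993 FPKM in control and at 1.504 and 0.958 FPKM in the knockdown.

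The 6 collagen IV genes encode the network-forming collagen of basement membranes, and all were tested. By limma 0 of the 6 were called, beside 19.0% of all tested and 22.8% of tested protein-coding genes. At an unadjusted p under 0.05 there were also 0, and voom called COL4A4 lower (log2 fold change -0.24, adjusted p = 0.0340). COL4A5 was the most abundant, with 9.82, 10.1 and 10.3 FPKM in control and 10.6, 10.4 and 10.5 FPKM in the knockdown. Its groups did not overlap, at a log2 fold change of 0.06 (adjusted p = 0.262). COL4A6, its neighbour and partner, had 4.40, 4.58 and 4.48 FPKM in control and 4.43, 4.62 and 4.04 FPKM in the knockdown. COL4A1, the more widely expressed form, had 2.69, 2.33 and 2.44 FPKM in control and 2.51, 2.80 and 2.88 FPKM in the knockdown. COL4A1 and COL4A6 overlapped between groups. The partner chains COL4A2, COL4A3 and COL4A4 were at 1.78, 1.53 and 1.81 FPKM in control.

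Collagen IV genes lie in head-to-head pairs that are read away from a shared promoter. The RefSeq start sites lie 127 bases apart for COL4A1 and COL4A2 on chromosome 13, 419 bases for COL4A4 and COL4A3 on chromosome 2, and 380 bases for the nearest sites of COL4A6 and COL4A5 on chromosome X. The level of 1 gene over the other was 1.397 ± 0.14 for COL4A1 to COL4A2, 1.19 ± 0.053 for COL4A4 to COL4A3 and 2.25 ± 0.050 for COL4A5 to COL4A6 in control (SD, n = 3). In the knockdown these ratios were 1.47 ± 0.14, 1.14 ± 0.13 and 2.42 ± 0.17. Per base of the longest coding transcript, the control ratios were 1.05, 1.06 and 2.99. The window of COL4A2 (chr13:110307034-110307333, plus strand, RefSeq on GRCh38.p14) is shown because it holds the start sites of both genes, COL4A1 at 110307157 on the minus strand and COL4A2 at 110307284 on the plus strand. Capitals mark CCAAT and the GC box GGGCGG, each present in 1 copy.
COL4A2: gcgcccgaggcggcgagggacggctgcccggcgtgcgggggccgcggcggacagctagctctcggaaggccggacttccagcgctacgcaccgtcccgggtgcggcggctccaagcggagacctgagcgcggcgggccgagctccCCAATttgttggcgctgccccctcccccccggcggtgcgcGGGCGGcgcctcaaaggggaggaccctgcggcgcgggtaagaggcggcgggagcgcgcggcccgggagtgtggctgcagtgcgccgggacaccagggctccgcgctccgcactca

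Fibrillar collagens, whose long helices assemble into fibrils, held the largest rise and the highest level. Of 11 genes 5 were tested, of which COL27A1 rose while COL5A2 and COL1A2 fell. These calls were 60% of only 5 genes, beside 19.0% of all tested and 22.8% of tested protein-coding genes. COL5A2, the second chain of collagen V, had 193, 194 and 194 FPKM in control and 174, 178 and 169 FPKM in the knockdown. Every knockdown library was below every control library by more than the spread within groups. COL5A2 (chromosome 2, 189031896 to 189225312, minus strand) fell by 0.15 (SE 0.022, adjusted p = 0.00417) to 89.9% of control, and its call was kept in all alternatives tried. COL5A1, the chain that collagen V trimers contain, was listed at 0 in all 6 libraries, and the related COL11A1 was at 6.45 ± 0.35 FPKM in control and 6.93 ± 0.15 FPKM in the knockdown (SD, n = 3, adjusted p = 0.215). COL3A1, the tail-to-tail neighbour of COL5A2 at a distance of 19149 bases, was at 0.194 FPKM in control and 0.300 FPKM in the knockdown and was not tested. COL1A2, a chain of collagen I, had 5.43, 5.42 and 5.31 FPKM in control and 4.804, 4.37 and 4.8 FPKM in the knockdown, without overlap. COL1A2 fell by 0.18 (SE 0.045, adjusted p = 0.0365) to 86.4% of control, a call lost when any 1 library was left out (adjusted p from 0.0639 to 0.0970) and without the filter (0.0795). COL1A1, the other chain of collagen I, was at 0.907 ± 0.0084 FPKM in control and 0.920 ± 0.14 FPKM in the knockdown. COL1A2 exceeded it in every library, with a ratio of 5.94 ± 0.018 in control and 5.14 ± 0.90 in the knockdown.

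Among markers of stellate cells and fibroblasts LUM was lower together with these collagens. The summed level of the markers was 58.8 to 62.5 FPKM in control and 52.0 to 54.9 FPKM in the knockdown, nearly all of it LUM, a collagen-binding proteoglycan that fell from 57.6 ± 1.9 to 50.7 ± 1.3 FPKM (SD, n = 3, adjusted p = 0.00931). Of the 11 markers 3 were tested and 1 was called (33.3%, beside 19.0% of all tested and 22.8% of tested protein-coding genes). PDGFRA and RGS5 were not called (log2 fold changes -0.013 and -0.011, adjusted p = 0.927 and 0.950). The defining markers ACTA2, PDGFRB, DCN and THY1 were at 0.0311, 0.0574, 0.0043 and 0 FPKM in control. In bulk RNA fewer cells of a type and less RNA per cell cannot be told apart, and the part of these markers in the collagen values was not tested.

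COL27A1, a fibrillar collagen best known from cartilage, had 6.15, 5.86 and 5.64 FPKM in control and 7.72, 7.73 and 7.49 FPKM in the knockdown. All knockdown libraries were above all control libraries. COL27A1 (chromosome 9, 114155560 to 114312511, plus strand) rose by 0.33 (SE 0.040, adjusted p = 0.00238) to 130% of control, the largest rise among the 39 genes. Its call was kept in all alternatives tried. Its promoter window (chr9:114155287-114155586, plus strand, RefSeq on GRCh38.p14) is shown as that of the gene with this rise, with its 3 GC boxes, read as GGGCGG or, where it lies on the opposite strand, as CCGCCC, in capitals. It holds 65.7% G and C and 0 matches to the CCAAT, TATA and forkhead words.
COL27A1: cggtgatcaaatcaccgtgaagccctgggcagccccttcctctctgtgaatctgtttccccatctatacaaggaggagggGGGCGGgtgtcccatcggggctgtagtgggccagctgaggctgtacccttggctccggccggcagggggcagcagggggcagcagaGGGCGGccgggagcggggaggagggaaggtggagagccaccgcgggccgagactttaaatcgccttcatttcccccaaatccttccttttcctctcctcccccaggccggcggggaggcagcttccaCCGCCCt

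Such short words are common. RefSeq windows were found for 59 of the 83 genes. They came to 78 windows, 38 of them of tested genes. GGGCGG on either strand was present in 44 of the 78, in 29 of the 38 (76.3%) and in 45.0% of all 35116 windows of equal length. CCAAT was present in 20 of the 78, in 7 of the 38 (18.4%) and in 34.6% of all windows. TATAAA was present in 10 of the 78, in 5 of the 38 (13.2%) and in 11.5% of all windows, and the forkhead core in 0 of the 78 and in 3.42% of all windows. Base composition was not matched between these sets. In the windows shown above, matches did not overlap one another.

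The 27 other collagens include fibril-associated, transmembrane and beaded-filament types, and 11 of them were tested. By limma 1 fell and 0 rose, or 9.09% called beside 19.0% of all tested and 22.8% of tested protein-coding genes. At an unadjusted p under 0.05 there were 2, COL14A1 and COL26A1, and voom called COL14A1 alone. The fibril-associated collagen gene COL14A1 had 131, 131 and 132 FPKM in control and 117, 120 and 117 FPKM in the knockdown. Knockdown libraries were all lower, and the spread within each group was small beside the difference. COL14A1 fell by 0.15 (SE 0.018, adjusted p = 0.00223) to 89.8% of control, in a call kept in all alternatives tried. COL18A1, the source of endostatin and a basement membrane proteoglycan, had 21.4, 20.9 and 19.5 FPKM in control and 21.4, 20.0 and 20.6 FPKM in the knockdown, with overlap. Of the gene length of COL18A1 16.4% overlaps SLC19A1 on the opposite strand, a gene at 3.60 FPKM. COL9A2, a chain of cartilage collagen IX, had 14.4, 15.99 and 14.4 FPKM in control and 15.4, 15.1 and 14.3 FPKM in the knockdown, with overlap. COL16A1, COL9A3, COL12A1 and COL6A1 were at means of 12.1, 8.34, 5.32 and 4.91 FPKM and were not called. COL26A1 was at 1.86 ± 0.20 FPKM in control and 2.27 ± 0.032 FPKM in the knockdown without overlap, with an adjusted p of 0.0902.

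Collagen RNA as a whole was carried by COL5A2 and COL14A1. The sum over the 44 collagen genes was 437, 439 and 436 FPKM in control and 408, 412 and 401 FPKM in the knockdown, and the groups did not overlap. COL5A2 and COL14A1 made up 74.3% ± 0.51 of it in control and 71.7% ± 0.57 in the knockdown (SD, n = 3). Without these genes the collagen sum was 113 ± 2.7 FPKM in control and 115 ± 1.7 FPKM in the knockdown. The sums are descriptions and were not tested.

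Setting subunits and chains beside their partners showed which receptors and matrix trimers have all their chains transcribed above the filter. Of 24 integrin heterodimers, 7 had both subunits tested, namely ITGB1 with ITGA1, ITGA2, ITGA5, ITGA6, ITGA7 and ITGAV, and ITGB5 with ITGAV. The pair of ITGA7 and ITGB1 counts through the control libraries alone, since ITGA7 was under 0.5 FPKM in every knockdown library. ITGB1 exceeded each of its alpha partners, and the alpha subunits that pair with it summed to 1.52 ± 0.034 times its level in control and 1.37 ± 0.032 times in the knockdown. That sum counts ITGAV in full, although ITGAV also pairs with ITGB5. The ratio of ITGAV to ITGB1 was 0.716 ± 0.019 in control and 0.616 ± 0.024 in the knockdown. Per base of the longest coding transcript it was 0.519 and 0.446, so the size of such ratios depends on the length used. On the matrix side, 12 of 60 laminin combinations of an alpha, a beta and a gamma chain were complete, and the combination of LAMA5, LAMB1 and LAMC1 had the highest least abundant chain, LAMA5 at 33.8 FPKM in control. Of 9 collagen trimer sets, 4 were complete, namely COL1A1 with COL1A2, COL4A1 with COL4A2, COL4A3 with COL4A4 and COL4A5, and COL4A5 with COL4A6.

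Several abundant chains had a partner at or near 0. COL5A2 stood beside COL5A1, listed at 0 in all libraries. An exact 0 may be low expression or a matter of annotation and counting, which was not tested. Of 162 ribosomal, respiratory complex I and proteasome subunit genes, most of which every cell uses, 1 was also listed at 0 in all libraries. COL6A1 at 4.75 FPKM and COL6A2 at 1.09 FPKM in control stood beside COL6A3, with 1 read in each control library and 0 in each knockdown library. COL9A2 and COL9A3 stood beside COL9A1, with 0, 2 and 5 reads in control and 0, 2 and 3 reads in the knockdown. ITGA6 at 15.2 FPKM in control had ITGB4, its partner in hemidesmosomes, at 0.365 FPKM. These are RNA levels, and protein was not measured.

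**Figure D4:**
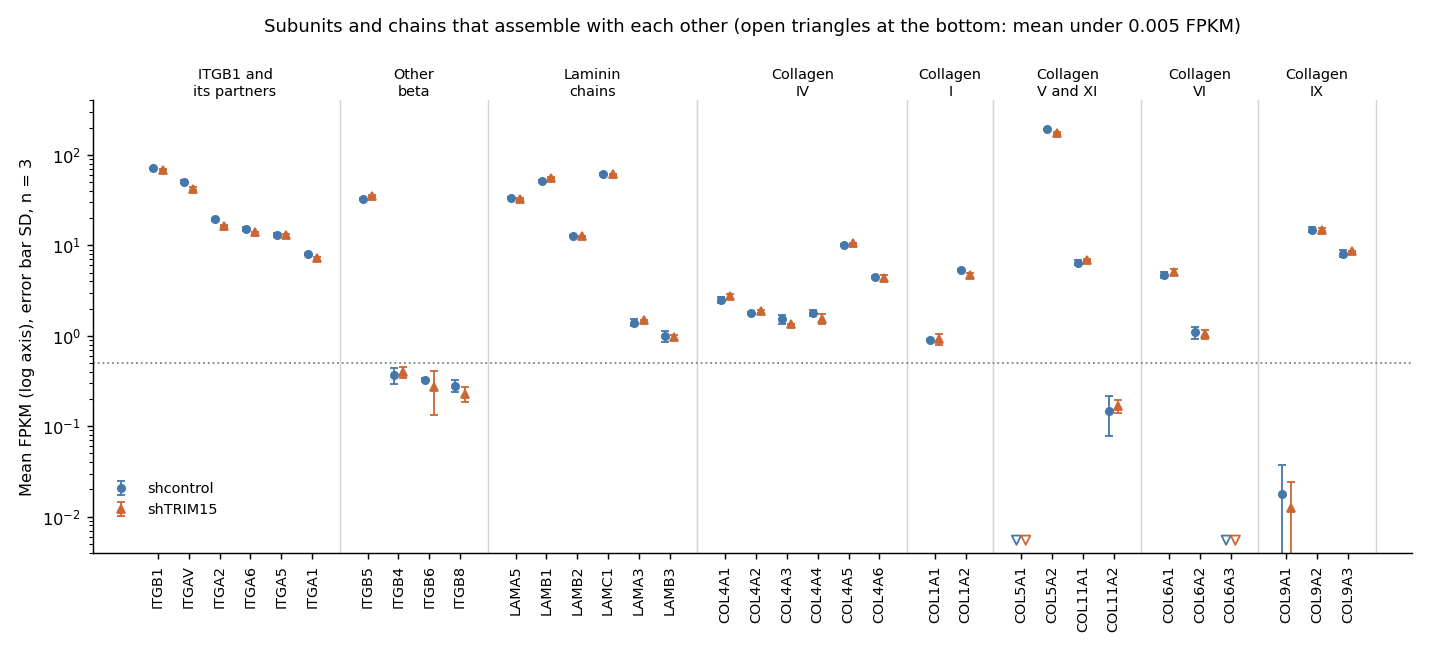
Mean FPKM (log axis) of subunits and chains that assemble with each other, in shcontrol (circles) and shTRIM15 (triangles), with the SD of 3 libraries as error bars and a dotted line at 0.5 FPKM, where open triangles at the bottom mark means under 0.005 FPKM. COL5A1 and COL6A3 lie at the bottom beside abundant partners, and the ITGAV points differ between groups while those of ITGB1 nearly coincide.

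Receptor subunits and matrix chains can be read side by side by family, though binding of a given chain was not measured. For collagen, the receptor subunits ITGA1 and ITGA2 fell and so did the most abundant chains COL5A2 and COL14A1, while COL27A1 rose and the 6 collagen IV genes were not called. For laminin, ITGA6 was not called, and LAMB1 rose beside LAMC1 and LAMA5, which were not called. For the RGD receptors, ITGAV fell, ITGB5 rose and ITGA5 was not called. Their ligand vitronectin (VTN) had 76.1, 79.7 and 76.7 FPKM in control and 70.0, 68.2 and 69.0 FPKM in the knockdown without overlap, and fell by 0.16 (SE 0.024, adjusted p = 0.00504). Fibronectin (FN1) had 144, 142 and 144 FPKM in control and 138, 139 and 140 FPKM in the knockdown, also without overlap. FN1 did not pass in limma (log2 fold change -0.04, adjusted p = 0.124) and was called by voom (0.0011).

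Other genes of matrix and adhesion were described through lists of known members. Of 24 tested matrix proteins and integrin ligands 2 rose and 3 fell, or 20.8% beside 19.0% of all genes, with a median log2 fold change of -0.04. CYR61 and CTGF, matricellular proteins that bind integrins and are known targets of YAP, had the largest rises. CYR61 had 77.7, 71.6 and 76.7 FPKM in control and 106, 110 and 107 FPKM in the knockdown and rose by 0.51 (SE 0.034, adjusted p = 0.000287). CTGF went from 89.96 ± 1.9 to 124 ± 2.3 FPKM (SD, n = 3) and rose by 0.46 (adjusted p = 0.000164). NPNT, a ligand of the integrin of ITGA8 and ITGB1, fell by 0.17 (adjusted p = 0.0166), while ITGA8 itself was listed at 0. The NPNT call was lost without control library 2 (0.0566) or 3 (0.0527) and without knockdown library 1 (0.0593) or 3 (0.0536).

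Enzymes and chaperones that modify, fold and crosslink collagen moved in both directions. Of 24 tested genes 5 rose and 3 fell, or 33.3% beside 19.0% of all tested and 22.8% of tested protein-coding genes, with a median log2 fold change of 0.0011. SERPINH1, the collagen chaperone HSP47, had 26.5, 27.2 and 26.4 FPKM in control and 30.9, 31.6 and 30.3 FPKM in the knockdown and rose by 0.20 (SE 0.026, adjusted p = 0.00290). COLGALT1, which adds galactose to hydroxylysine, rose by 0.19 (adjusted p = 0.00258). P4HB, the beta subunit of prolyl hydroxylase and the most abundant of the list at 158 FPKM, rose by 0.08 (adjusted p = 0.0235). The P4HB call was lost without control library 2 (0.0662) or 3 (0.0617), without knockdown library 1 (0.0642) or 3 (0.0759), without the filter (0.0616) and without the trend (0.124). LOXL4, a lysyl oxidase that crosslinks collagen, fell from 37.4 ± 2.0 to 29.9 ± 1.6 FPKM (SD, n = 3), by 0.31 on the log2 scale (adjusted p = 0.00660). PLOD2, a lysyl hydroxylase, fell by 0.14 (adjusted p = 0.0150), a call lost without knockdown library 2 (0.0559) or 3 (0.0557).

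Inside the cell, 31 integrin adaptors and activators were tested, of which 4 rose and 3 fell, with a median of 0.02. The share called was 22.6%, beside 19.0% of all tested and 22.8% of tested protein-coding genes. ACTN4, an actin crosslinker and the most abundant at 235 FPKM, was not called (log2 fold change 0.02). LIMS1, which with ILK and parvin links integrins to actin, had 12.6, 13.0 and 13.4 FPKM in control and 10.7, 11.4 and 10.9 FPKM in the knockdown. Without overlap, LIMS1 fell by 0.22 (SE 0.035, adjusted p = 0.00657), though its reads may be shared with near-identical copies of the gene. SHARPIN, an inhibitor of integrin activation, rose by 0.18 (adjusted p = 0.00585), TNS3, a tensin of focal adhesions, rose by 0.14 (adjusted p = 0.00970), and KANK2, which binds talin, fell by 0.20 (adjusted p = 0.0163). KANK2 lost its call when any 1 knockdown library was left out (0.0522 to 0.0551).

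Among 18 tested matrix receptors other than integrins and integrin partners, 3 rose and 2 fell, with a median of -0.04. The share called was 27.8%, beside 19.0% of all tested and 22.8% of tested protein-coding genes. The syndecans, proteoglycan receptors that act beside integrins, differed in direction. SDC1 had 18.9, 18.6 and 18.01 FPKM in control and 24.3, 23.8 and 24.6 FPKM in the knockdown and rose by 0.37 (SE 0.029, adjusted p = 0.000480). SDC4, the syndecan of focal adhesions, had 205, 203 and 211 FPKM in control and 180, 181 and 182 FPKM in the knockdown and fell by 0.19 (SE 0.019, adjusted p = 0.00123). SDC2 fell by 0.22 (adjusted p = 0.00429). DAG1, the laminin receptor dystroglycan, rose from 38.3 ± 0.37 to 42.9 ± 0.32 FPKM (SD, n = 3), by 0.16 (adjusted p = 0.00265). RPSA, the most abundant of the list at 519 FPKM, was not called by limma (log2 fold change -0.03, adjusted p = 0.229) and was called by voom (0.0215), and its reads may be shared with its many pseudogenes.

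**Figure D5:**
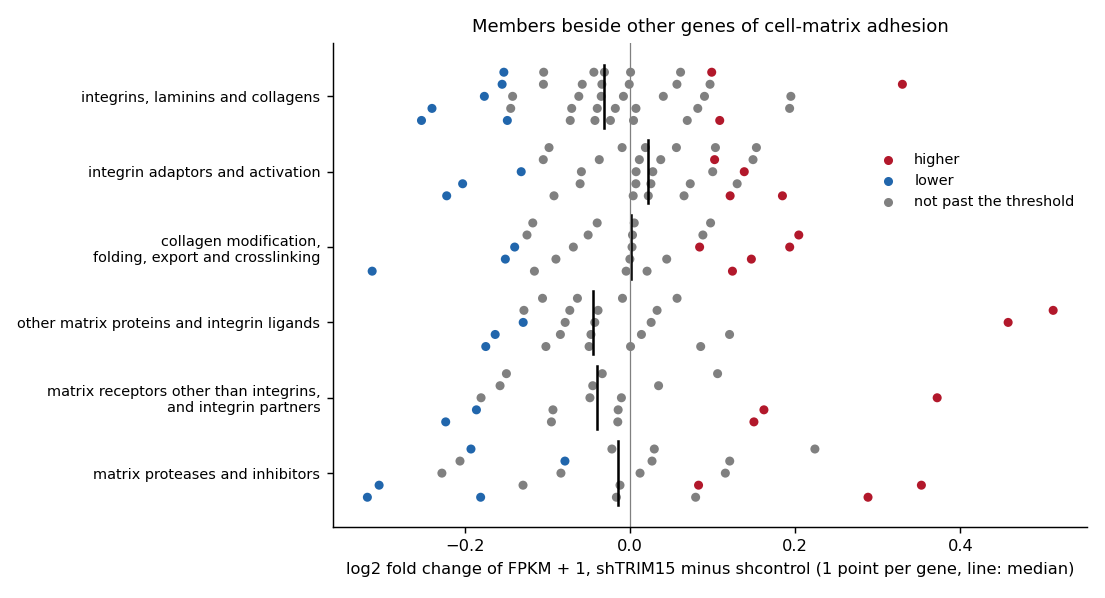
Log2 fold change of FPKM + 1 (shTRIM15 minus shcontrol) for each tested gene, 1 point per gene, of the integrins, laminins and collagens and of 5 lists of other adhesion genes, coloured by whether the gene passed the threshold, with the median of each row as a black line. Medians lie between -0.04 and 0.02, and the points furthest to the right are the matricellular genes CYR61 and CTGF.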

How the data were processed

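RNA sequencing had been done on 3 shcontrol and 3 shTRIM15 libraries of Huh7 cells, prepared with a kit that keeps strand, per the labels' protocols. The deposited table holds FPKM values that the authors computed for 58735 genes, with 1 column per library. The submitters' processing notes name genome build mm10, a mouse build, but all 58735 identifiers are human and their coordinates equal those of GENCODE 29 on GRCh38, which is used here. Aligner, counting tool and use of strand are not given in the sources used here. Multiplying FPKM by gene length and dividing by the smallest step of the library gave whole reads (within 0.01) for 100% of values. The implied library sizes differed from the summed reads by -0.37 to -0.36% in control and 1.04 to 1.27% in the knockdown. Per-gene precision is limited by these depths and by 3 libraries per group.

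Genes with at least 0.5 FPKM in 3 or more libraries were tested with limma 3.58.1 in R 4.3.3 (two-sided, moderated variances with a mean-variance trend) on log2(FPKM + 1), where 1 is the pseudocount. P-values were adjusted by the Benjamini-Hochberg method over all 14847 genes, with a threshold of 0.05. SE and 95% intervals come from this model. The same steps were run on simulated data, with known changes placed only in genes with many reads, as a check of the code. That run does not measure how well changes as small as those reported here are found in these libraries. Alternatives were a pseudocount of 0.1, no filter, a mean of at least 1 FPKM, quantile scaling, no trend, the replicate number as a block, limma voom with TMM scaling on the recovered reads, and each library left out. The genes, lists and tests were chosen with earlier results of these data known. Named were the genes past the threshold, the 3 most abundant of each class, their partners in a heterodimer or trimer, and, per list, up to 4 called genes with the lowest adjusted p and the most abundant one. Others named for an overlap, a neighbour or groups that do not overlap (among them PELO, HASPIN, ADRM1, SLC19A1, COL3A1, ITGAL, COL26A1) were added after their values were seen. Levels per base of the GENCODE transcript with the longest coding sequence were added after the table was seen. Promoter windows and start sites are from RefSeq on GRCh38.p14. The values of 1 tested gene are not reported here and it is not drawn by name, but it is kept in counts, sums and medians.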

Additional observations from a re-analysis of the deposited data

How the results depend on the processing

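Of the 9 calls, those of COL14A1, COL27A1, COL5A2, ITGAV and ITGA2 kept their direction and side of the threshold in all 13 alternatives, and those of LAMB1, ITGB5, ITGA1 and COL1A2 kept their direction. Deviations of same-numbered libraries correlated by 0.009 to 0.013, and those of differently numbered libraries by -0.014 to 0.002. These values cannot decide whether the replicate numbers pair the libraries. All were small, and every same-numbered value was above every differently numbered value. The deviations were taken from group means, so these correlations are not independent of each other. With the replicate number as a block, 883 genes were higher and 1030 lower over all genes, 1 of the integrin, laminin and collagen genes was higher (COL27A1) and 4 were lower, and 11 genes of the 5 adhesion lists were higher. LAMB1 (adjusted p = 0.0620), ITGB5 (0.0995), ITGA1 (0.0860) and COL1A2 (0.0826) lost their calls under the block. Without the trend 10 genes of the 5 lists were higher, without the filter 10 were lower, and with voom 30 were lower. Leaving out 1 library at a time gave 792 to 1115 higher and 978 to 1224 lower genes in all, 1 to 2 higher genes among the integrins, laminins and collagens, and 9 to 12 higher and 8 to 14 lower genes in the 5 lists, each with fewer samples. The median log2 fold change of the tested integrin, laminin and collagen genes was -0.0043 without the filter and -0.044 with voom. Voom called 4 of these genes higher and 8 lower, with ITGAL, ITGA6 and COL4A4 beside the 9.

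The sign turned only in genes that were not called. With quantile scaling LAMC1 was at 0.030, COL9A2 at 0.0060 and ITGA5 at -0.0071. With voom ITGA5 was at -0.0076, COL18A1 at -0.0016 and COL1A1 at -0.0010. With 1 library left out, values ranged over 0, from -0.027 to 0.0049 for LAMC1, -0.034 to 0.031 for COL18A1, -0.025 to 0.046 for COL9A2, -0.042 to 0.031 for ITGA5, -0.068 to 0.0099 for COL4A6, -0.083 to 0.030 for COL6A2, -0.055 to 0.034 for LAMB3 and -0.041 to 0.062 for COL1A1. The cause was not tested. With 3 libraries per group, changes of a few percent in genes near 1 FPKM were not detectable at this depth.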

Other observations

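Of 22 tested proteases that cut matrix and their inhibitors, 5 fell and 3 rose, or 36.4% called beside 19.0% of all genes, with a median log2 fold change of -0.01. ADAM9, a membrane protease that also binds integrins, had 104, 109 and 111 FPKM in control and 94.2, 96.8 and 92.5 FPKM in the knockdown and fell by 0.19 (SE 0.030, adjusted p = 0.00608). PLAU, the urokinase that starts plasmin formation, had 3.58, 3.36 and 3.87 FPKM in control and 2.77, 2.44 and 2.88 FPKM in the knockdown and fell by 0.32 (adjusted p = 0.0187). The PLAU call was lost without the filter (0.0586), without control library 3 (0.0583) and without knockdown library 2 (0.0522). MMP14, a membrane-bound collagenase and the most abundant of the list, fell from 137 ± 0.98 to 130 ± 2.8 FPKM (SD, n = 3, adjusted p = 0.0405), a call that was lost with quantile scaling (0.0534), without the filter (0.0972), without the trend (0.156) and when any library but knockdown library 1 was left out (0.0678 to 0.125). The cathepsin genes CTSB and CTSK, which encode lysosomal proteases, rose by 0.08 (adjusted p = 0.0296) and 0.29 (adjusted p = 0.0324). Both lost the call when any 1 library was left out, CTSB with adjusted p from 0.0622 to 0.101 and CTSK from 0.0641 to 0.101, CTSB also without the trend (0.111) and CTSK without the filter (0.108) and with voom (0.103).

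ITGB7 was listed at 0 in all libraries although 42.1% of its gene length overlaps exons of ZNF740 on the opposite strand, a gene at 4.25 FPKM. COL19A1 lies tail to tail with COL9A1, which had at most 5 reads in a library. LAMB1 and LAMB4 lie 20292 bases apart on chromosome 7 at 53.7 and 0.123 FPKM. Of the 13 hepatocyte markers, 4 fell (KRT8, KRT18, FGB and TF) and 0 rose by limma. The share called was 30.8%, beside 19.0% of all tested and 22.8% of tested protein-coding genes. ALB, AFP and HNF4A were higher without overlap at log2 fold changes of 0.045, 0.053 and 0.076, and voom called ALB and HNF4A higher. The summed level of all 13 was 2857 to 2873 FPKM in control and 2729 to 2766 FPKM in the knockdown.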
